A study of Mus musculus with 2 samples.

Results

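Mesothelial cells form the single-layered serous sheet on the outside of the liver. Among liver non-parenchymal cells (NPCs), 89 of 13603 kept cells were chosen by a marker rule as mesothelial cells, 43 of 7471 cells of the normal library and 46 of 6132 of the fibrosis library. The members were chosen by their own raw counts: at least 5 unique molecular identifiers (UMIs, 1 per captured mRNA molecule) of Msln, Upk3b and Upk1b together, at most 3 of the stellate cell genes Lrat and Reln, and at most 20 of the endothelial genes Ptprb and Kdr. They made up 0.576% of kept normal cells (exact 95% binomial interval 0.417 to 0.774) and 0.750% of kept fibrosis cells (0.550 to 0.999), shares whose intervals overlap. These intervals, like all others given here, cover counting error only.

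The fibrosis library came from 1 male mouse given CCl4, a hepatotoxin, and the normal library from 1 male mouse given its carrier, olive oil. Both mice were 8 weeks old and received 2 intraperitoneal injections a week for 6 weeks. NPCs were freed by collagenase perfusion and hepatocytes were spun out before droplet scRNA-seq (10x Chromium, 3′ chemistry). Each condition is 1 mouse and 1 library, so condition, mouse, perfusion and library cannot be told apart, no test between conditions was possible, and all ratios below compare 2 libraries.

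Mesothelial cells share features of epithelium (keratins, tight junctions, apical uroplakins and mucins) and of mesenchyme (vimentin, collagens). They secrete lubricants, protease inhibitors and complement proteins into the peritoneal fluid. The transcription factor WT1 marks them in the adult, and in developing and injured liver mesothelial cells have been described as a source of stellate cells and myofibroblasts.

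Levels are given as UMIs of a gene per 10000 UMIs of a group of cells, with an exact 95% Poisson interval where one is printed. A median member of the normal library held 11045 UMIs (2357 to 29906) and 3915 genes. A median member of the fibrosis library held 16669 UMIs (888 to 49315) and 5113.5 genes. Of the deposited barcodes, 15 occurred in both libraries. Free RNA in the suspension adds UMIs of genes a cell does not express, so each library's lymphoid cells (1312 normal, median 3360.5 UMIs, and 606 fibrosis, median 2451 UMIs) served as the background. They were chosen by B- or T-cell genes, with few Lyz2 and endothelial UMIs. Members were deeper than lymphoid cells, so an equal level means more UMIs per member than per lymphoid cell. Levels per 10000 UMIs alone therefore do not place a gene above or under the background.

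Few cells lay near the rule's minimum of 5 UMIs of the 3 chosen genes. Of kept cells, 7276 normal and 5837 fibrosis cells had no UMI of the 3 chosen genes, and 2 in each library had 3 or 4. Normal members had between 6 and 154 (median 49) and fibrosis members between 6 and 165 (median 30.5), so the members nearest the limit held 6 and the cells just outside it 4. Between 5 and 9 were held by 2 normal and 4 fibrosis members. A further 5 normal and 12 fibrosis cells met the marker limit but exceeded the endothelial cap, with 34 to 94 and 21 to 107 UMIs of Ptprb and Kdr. The stellate cap was exceeded by 0 normal and 3 fibrosis cells, of which 2 exceeded both caps. Members did lie near the caps, with up to 20 endothelial UMIs in normal and 13 in fibrosis members. Their stellate UMIs reached 1 and 3. Stricter caps left out 15 members of each library.

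The label was checked against the 3 markers that the rule did not use: Gpm6a (a neuronal-type membrane glycoprotein), Slpi (a secreted protease inhibitor) and Igfbp6 (an IGF-binding protein). All 3 were detected in 38 of 43 normal and 44 of 46 fibrosis members. In lymphoid cells Gpm6a and Igfbp6 stood at or under 0.0662 in both libraries, while Slpi stood at 5.62 in normal and 0.265 in fibrosis lymphoid cells. Igfbp6 was not particular to members. It had UMIs in 72.5% of normal and 52.8% of fibrosis fibroblast comparison cells (described below), against 95.3% and 100% of members. Gpm6a had UMIs in 2.5% and 13.9% of these fibroblast cells, and Slpi also in 2.5% and 13.9%. In the normal library 2 members carried cholangiocyte genes instead. They held 11 and 36 UMIs of Epcam, 37 and 97 of Spp1, and 128 and 397 of 4 keratins, with 0 and 1 of Gpm6a and 0 of Igfbp6. The data go against the label for these 2 cells, and results that rest on them are given also without them. In the fibrosis library 4 members held 50, 93, 101 and 162 UMIs of the macrophage genes C1qa, C1qb and C1qc, and 7 held 17 to 110 UMIs of the proliferation genes Mki67 and Top2a. The shallowest fibrosis member had 888 UMIs. No Muc16 UMI was found in 7 normal and 10 fibrosis members, the latter with 4811 to 49315 UMIs in all and at most 11 of Gpm6a, and the collagen results below are given also without such cells.

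A group of genes, the rule's own 3 among them, was many times higher in the members than in any of 3 groups of related cells of the same library, stellate (64 normal, 245 fibrosis cells), fibroblast (40 and 36) and endothelial (2763 and 1769). Genes at 1 or more in the members of both libraries were ranked by the smaller of the 2 libraries' ratios over the highest of these groups, and the first 15 were Bnc1, Dmkn, Ephb1, Gpm6a, Il18r1, Kcnab1, Lrrn4, Msln, Muc16, Myl7, Pkhd1l1, Slpi, Tmem151a, Upk1b and Upk3b. Since members and comparison cells were both picked by their genes, this ranking is a description, and for Msln, Upk1b and Upk3b it repeats the rule. Muc16, a membrane mucin of serosal surfaces known as CA125, stood at 5.74 (5.11 to 6.43) in normal and 3.48 (3.10 to 3.88) in fibrosis members, and members held 89.2% and 66.2% of all its UMIs in kept cells. Lrrn4, a leucine-rich repeat neuronal protein, stood at 6.4 and 4.66, with 81.8% and 72.8% of its UMIs. Bnc1, a zinc-finger factor of epithelia, stood at 1.5 and 1.17, and stellate and fibroblast cells of both libraries had none. Il18r1, a receptor chain for interleukin 18, and Slpi were the only genes of the 15 that lymphoid cells held above 0.1 in either library, Il18r1 at 0.578 and 0.695.

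**Figure D1:**
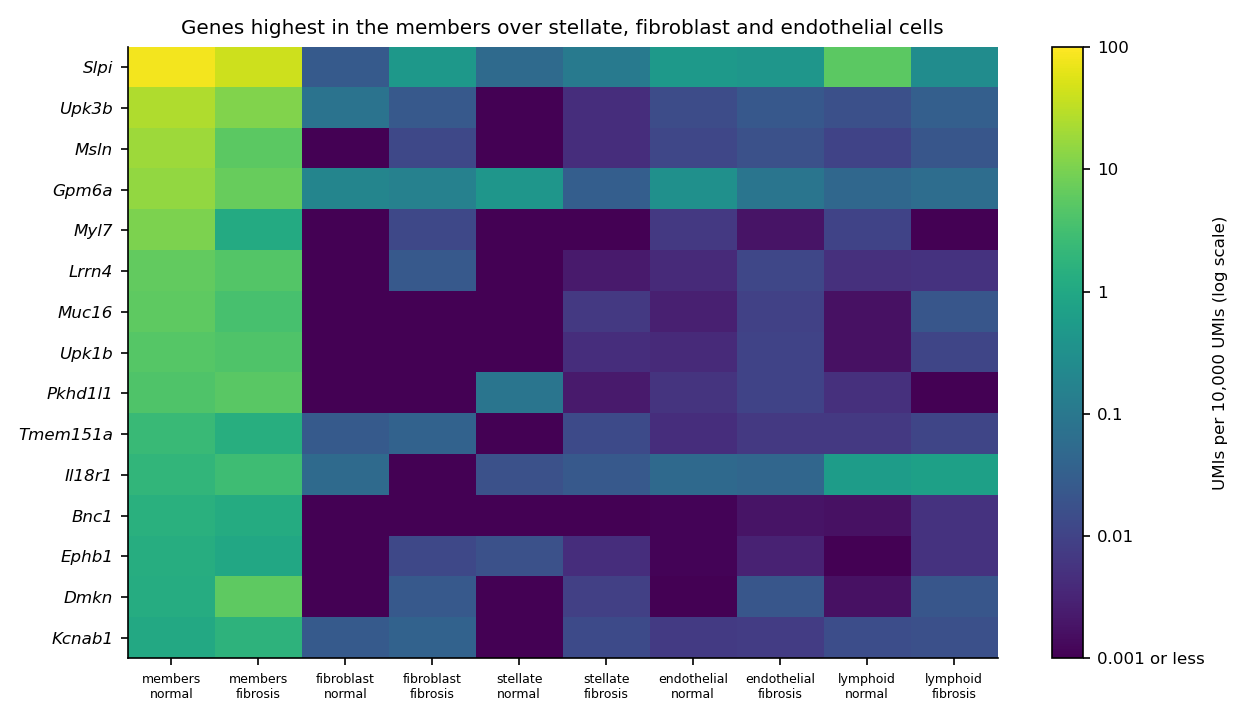
Level (UMIs per 10000 UMIs of the group, log colour scale) of the 15 genes that stood highest in the members over 3 other groups, for members and 4 groups of comparison cells in each library. The 2 left columns are bright throughout, Slpi is also visible in normal lymphoid cells (5.62), and Myl7 is dimmer in fibrosis members (1.14) than in normal members (10.4).

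Across genes, the question was what differs in these surface cells between the normal and the fibrotic liver. Of 2273 genes at 1 or more in the members of either library, 283 (12.5%) were called at least 2 times higher in fibrosis members and 244 (10.7%) at least 2 times lower, with a counting interval of the ratio that left out 1. The median gene had a log2 ratio of 0.10. A call is a rule of size and not a test. Fibrosis members were deeper, and UMIs per cell without scaling gave another split, 929 higher and 112 lower. The direction of a gene that passed this floor in 1 library alone was set by the floor: 209 of the higher calls passed it through fibrosis members only and 173 of the lower calls through normal members only. Of 1379 genes past the floor in both libraries, 74 (5.37%) were called higher and 71 (5.15%) lower. Counts over the lists below are therefore descriptions, each with the number past the floor in both libraries, and support no direction of a list.

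**Figure D2:**
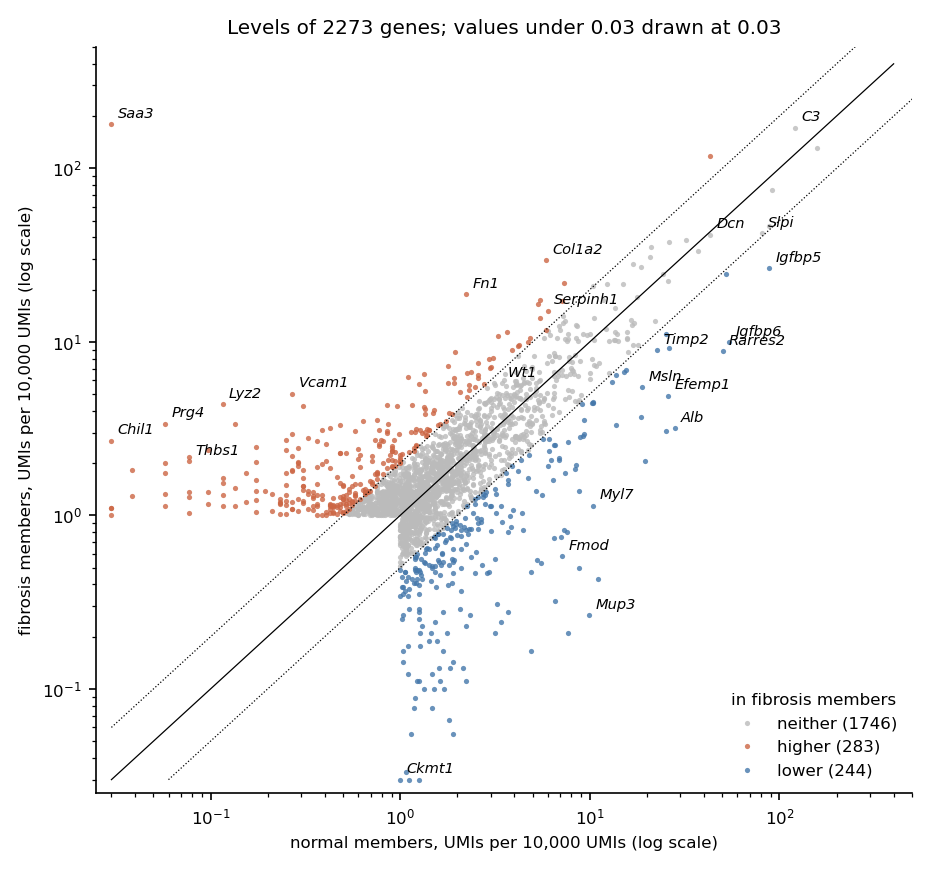
Level of each of 2273 genes in normal (x axis) and fibrosis members (y axis), UMIs per 10000 UMIs on log scales, with values under 0.03 drawn at 0.03. The solid line marks equal levels and dotted lines a ratio of 2 either way. Saa3 stands alone at the upper left with 0 UMIs in normal and a level of 180 in fibrosis members.

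Saa3 (chr7:46711998-46715700, minus strand, mm10), an acute phase apolipoprotein made outside the liver parenchyma during inflammation, differed most. It had no UMI in any of 43 normal members, which allows a level of up to 0.0578 and a share of cells with a UMI of up to 6.98%. All 46 fibrosis members had UMIs, with a lowest level of 0.231, a median of 112 and a highest of 778. Saa3 was the only one of the 2273 genes for which every fibrosis cell lay above every normal cell, and 41 of the 46 were over 10. The summed level was 180 (178 to 183), at least 3119-fold higher than the normal limit, and no cell held more than 11.3% of it.

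Saa3 was not even across the fibrosis library. Lymphoid cells stood at 1.02, stellate cells at 0.381 and fibroblast cells at 15.7, and members, 0.750% of kept cells, held 54.0% of all Saa3 UMIs. The lowest member lay under the lymphoid level, so a UMI alone does not show that a member expressed Saa3. After thinning each cell to 1000 UMIs, an expected 88.3% of members had a UMI against 11.3% of lymphoid cells (100% and 25.9% before thinning). In the normal library lymphoid cells stood at 0.0151.

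The promoter windows of Saa3, of the complement gene C3, which members expressed in both libraries, and of the uroplakin gene Upk3b are shown because these genes carry the largest ratio, a high level in both libraries and the identity of the members. Each runs from 250 bases before to 50 after the start site (RefSeq, GRCm38.p6, the build of the counts), 5′ to 3′ on the gene's strand. Capitals mark matches on either strand to the AP-1 motif TGANTCA, the C/EBP motif TTGCNNAA or the TEAD motif GGAATG. The Saa3 window is chr7:46715627-46715926 (minus strand), the C3 window chr17:57228087-57228386 (minus strand) and the Upk3b window chr5:136038246-136038545 (plus strand).
Saa3: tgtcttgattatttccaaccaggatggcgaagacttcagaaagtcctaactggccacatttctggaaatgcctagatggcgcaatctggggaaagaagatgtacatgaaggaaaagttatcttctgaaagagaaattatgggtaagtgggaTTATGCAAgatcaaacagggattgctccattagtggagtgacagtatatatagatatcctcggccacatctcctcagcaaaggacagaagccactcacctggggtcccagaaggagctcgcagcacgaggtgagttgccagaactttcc
C3: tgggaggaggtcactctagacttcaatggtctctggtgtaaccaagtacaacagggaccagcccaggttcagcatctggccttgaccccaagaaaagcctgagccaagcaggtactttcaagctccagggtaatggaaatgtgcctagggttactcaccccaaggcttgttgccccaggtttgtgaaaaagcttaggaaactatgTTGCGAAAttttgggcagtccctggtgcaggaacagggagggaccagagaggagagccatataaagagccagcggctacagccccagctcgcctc
Upk3b: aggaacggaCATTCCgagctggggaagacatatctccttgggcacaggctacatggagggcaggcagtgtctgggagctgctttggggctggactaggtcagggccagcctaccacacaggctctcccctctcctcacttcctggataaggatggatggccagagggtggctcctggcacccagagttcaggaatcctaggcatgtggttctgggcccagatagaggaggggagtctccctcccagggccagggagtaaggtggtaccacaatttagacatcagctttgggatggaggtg
Saa3 and C3 each held 1 C/EBP match, with its first base 99 and 45 bases before the start, and Upk3b 1 TEAD match, 241 bases before. Such letters are common, since 10.8% of 32851 mouse promoter windows held the C/EBP letters, 14.7% the TEAD letters and 7.81% the AP-1 letters. A match is a description of the letters and not of binding.

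Of 10 acute phase and antimicrobial genes past the floor, 3 were called higher (Saa3, Cp and Lbp) and 1 lower (Wfdc2, at 0.660 times without the members that lack Muc16), with a median log2 ratio of 0.26 against 0.10 for all genes. Of 7 past the floor in both libraries 1, Cp, was higher. Cp, the copper-carrying ferroxidase ceruloplasmin, stood at 1.10 (0.832 to 1.42) in normal and 6.30 (5.8 to 6.84) in fibrosis members, 5.74 times higher (4.37 to 7.67). Single normal cells reached 4.52 and single fibrosis cells 24.7, so the cells overlapped. After thinning, Cp was expected in 8.35% of normal members, under normal lymphoid cells at 13.7%. In the fibrosis library these shares were 44.5% and 8.39%. Slpi went the other way without reaching the rule, at 80.5 (78.1 to 83.0) in normal and 42.5 (41.1 to 43.8) in fibrosis members. Its normal cells ranged from 0 to 339 (median 63.7) and its fibrosis cells from 0 to 254 (median 20.7).

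Of 10 complement genes, all past the floor in both libraries, 2 were higher and 1 was lower. C3, the central component cleaved in every activation route, stood at 121 (118 to 124) in normal and 171 (169 to 174) in fibrosis members, 1.42 times (1.38 to 1.46), with cells from 7.02 to 272 (median 121) and from 6.08 to 393 (median 185). The ranges overlapped almost fully. Members held 21.2% of the normal and 47.3% of the fibrosis library's C3 UMIs. C1s1, a protease of the C1 complex, was higher (7.09 and 17.2), as was Cd55 (1.93 and 5.78), which protects cells from complement but whose lymphoid level also was 2.42 and 5.13. C2 was lower, at 8.92 (8.13 to 9.77) and 2.83 (2.49 to 3.19). Serping1, the C1 inhibitor, stood at 18.0 and 9.61, short of the rule.

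Of 25 chemokine and cytokine genes 8 passed the floor, of which 5 were called higher and 1, Il18, lower. All 5 higher genes passed it through fibrosis members only and Il18 through normal members only, so their directions were set by the floor. Past it in both libraries was 1 gene, which was not called. Ccl2, which draws monocytes, had UMIs in 2 of 43 normal and 25 of 46 fibrosis members, at levels of 0.270 and 2.96, 11 times higher (6.42 to 20.3). Cxcl1, which draws neutrophils, stood at 0.482 and 3.33, 6.92 times (4.60 to 10.9), and 76.0% of its normal UMIs were in 1 cell. Cxcl10, an interferon-induced chemokine, stood at 0.0771 and 1.37, with lymphoid cells at 0.284 and 1.36. In the fibrosis library 73.9% of members and 33.5% of lymphoid cells had a Cxcl10 UMI, and an expected 13.6% and 13.9% after thinning. The near-equal fibrosis levels, in cells of unlike depth, do not place Cxcl10 above or under the background. Cxcl5 stood at 0.25 and 2.40, and 42.9% of the fibrosis UMIs came from 1 cell. Of 9 interferon response genes past the floor none was called higher and 3 were lower, among them Ifi27l2a (5.65 and 2.76). Among all genes tested 10.7% were lower. The floor set the direction of 1 of the 3, past it through normal members only. Past it in both libraries were 5, with 2 lower, where 5.15% of all genes were lower.

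Lubrication and fibrinolysis genes gave 2 higher and 2 lower calls among 9 past the floor. Prg4 (chr1:150449412-150466165, minus strand), which encodes lubricin, had 3 cells with UMIs among the normal and 31 among the fibrosis members. Its level was 0.0578 (0.0119 to 0.169) in normal and 3.38 (3.01 to 3.78) in fibrosis members, 58.4 times higher (19.8 to 285). Single fibrosis cells ranged from 0 to 23.2 with a median of 1.62. Lymphoid cells stood at 0.0387 and 0.0110. Cd44, the hyaluronan receptor, stood at 0.385 and 3.09, beside 1.96 and 2.68 in lymphoid cells. The water channel gene Aqp1 (9.17 and 2.85) and tissue factor, F3 (1.25 and 0.254), were lower. Both higher genes passed the floor through fibrosis members only and F3 through normal members only, so their directions were set by the floor. Past it in both libraries were 4, with Aqp1 lower and none higher.

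Chil1, a secreted chitinase-like protein of inflamed tissue, also had no UMI in normal members. UMIs were found in 35 of 46 fibrosis members, at a level of 2.69 (2.37 to 3.05), at least 46.6-fold higher. Its cells ranged from 0 to 14.2 with a median of 1.70, and members held 56.1% of its UMIs in the fibrosis library. Lymphoid cells stood at 0.00673 and 0.0276.

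**Figure D3:**
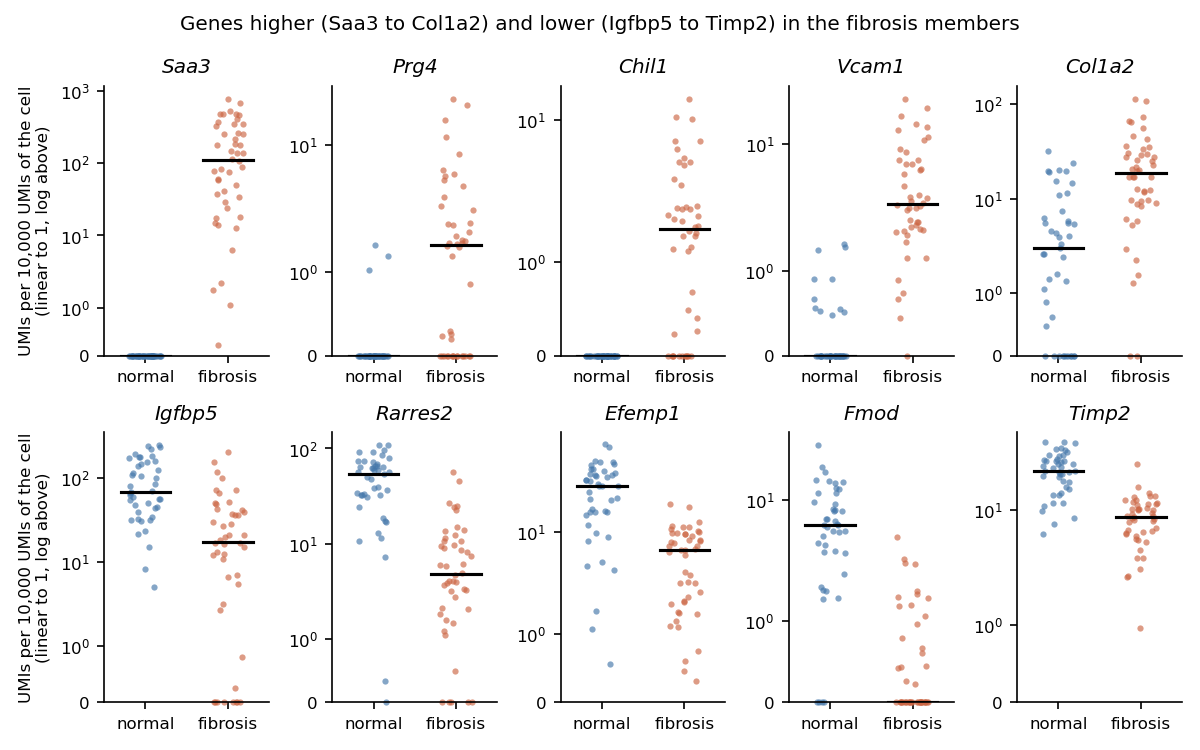
Level in each member cell (UMIs per 10000 UMIs of the cell, linear up to 1 and logarithmic above) of 5 genes called higher (Saa3, Prg4, Chil1, Vcam1, Col1a2) and 5 called lower (Igfbp5, Rarres2, Efemp1, Fmod, Timp2) in fibrosis members, with black bars at the medians. The Saa3 points do not overlap, while in the other 9 genes the cells of the libraries share part of their range.

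Of 15 genes named for the largest ratios, the others were Prkg2, Thbs1, Lgi2, Krt14, Gxylt2, Lamc3, Fam110c, Gda, Cxcl1, Angptl4, Cp and 1700025G04Rik. Prkg2, a cGMP-dependent protein kinase, had 2 normal and 35 fibrosis cells with UMIs, at levels of 0.0385 and 1.29, and members held 73.6% of its fibrosis UMIs. Thbs1, the matricellular protein thrombospondin-1 that can release active TGF-β, stood at 0.0771 (0.0210 to 0.197) and 2.06 (1.78 to 2.38), 26.8 times higher (10.3 to 99.3). It was detected in 4 of 43 and 23 of 46 members. Krt14, a basal-layer keratin, was seen in 5 normal and 16 fibrosis members, at 0.0963 and 1.37. Lamc3, a laminin chain, stood at 0.154 and 1.74, and Angptl4, a secreted lipase inhibitor, at 0.270 and 1.81. These genes were low in level and absent from part of the fibrosis cells.

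Of the 28 apical and identity genes 25 passed the floor, 12 of them called lower and 1, Prr15, higher, with a median log2 ratio of -0.92. The 3 genes of the rule are on this list, 2 of them (Msln and Upk3b) among the 12, so their values only describe the selection. Without these 3 genes 10 of 22 were lower, with a median log2 ratio of -0.82, and 9 of 20 past the floor in both libraries, where 5.15% of all genes were lower. Msln (chr17:25748613-25754378, minus strand), the mesothelin adhesion glycoprotein, stood at 18.9 (17.8 to 20.1) and 5.50 (5.02 to 6.00). Upk3b, a uroplakin of the apical membrane, stood at 25.1 (23.8 to 26.5) and 11.1 (10.4 to 11.8). Upk1b, a tetraspanin that pairs with uroplakins, hardly differed, at 4.70 (4.13 to 5.33) and 4.18 (3.77 to 4.63).

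Among the markers the rule did not use, Gpm6a stood at 15.5 (14.4 to 16.6) in normal and 6.90 (6.37 to 7.46) in fibrosis members, 0.445 times (0.400 to 0.495). Igfbp6 (chr15:102144362-102149511, plus strand) stood at 54.3 (52.3 to 56.4) and 10.0 (9.36 to 10.7), 0.184 times (0.171 to 0.198). Its cells ranged from 0 to 147 with a median of 57.1 in the normal library and from 0.203 to 26.3 with a median of 9.38 in the fibrosis library. The 2 normal cells without Igfbp6 were the 2 with cholangiocyte genes, and without them the ratio was 0.167. Rarres2, the chemoattractant chemerin, stood at 50.3 (48.4 to 52.3) and 8.86 (8.26 to 9.50). Its expected share after thinning was also lower in fibrosis fibroblast (57.3% and 25.5%) and stellate cells (48.0% and 26.6%). Bcam, a laminin receptor, stood at 13.7 and 3.30. Dcn (43.2 and 41.5), Ezr (14.0 and 10.1), Muc16, Lrrn4 and Pkhd1l1 (4.26 and 5.24) stayed within the 2-times limit.

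**Figure D4:**
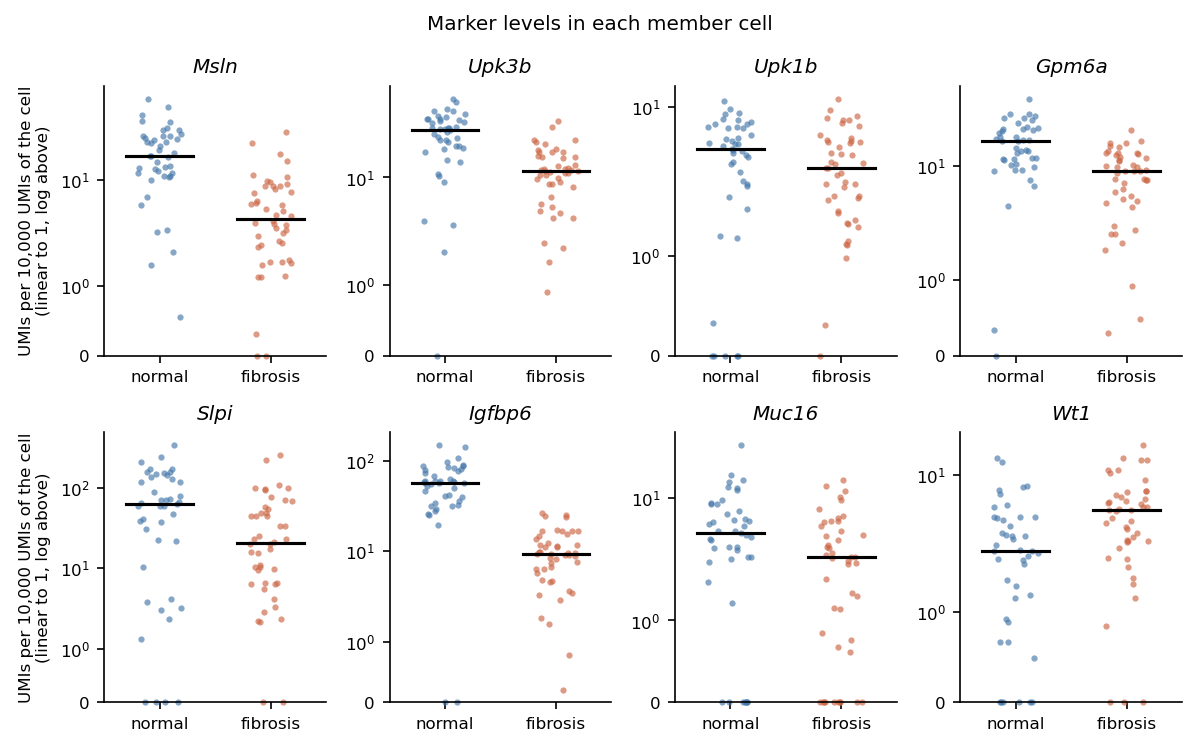
Level in each member cell (UMIs per 10000 UMIs of the cell, linear up to 1 and logarithmic above) of 6 markers and of Muc16 and Wt1, in normal and fibrosis members, with black bars at the medians. The bar for Igfbp6 stands at 57.1 for normal and 9.38 for fibrosis members, while that for Wt1 is higher in the fibrosis library (2.79 and 5.54).

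Mesothelial transcription factors past the floor numbered 10, of which none was called higher and 1, Osr1, lower (1.29 and 0.453). Among all genes tested 12.5% were higher and 10.7% lower. Osr1 passed the floor through normal members only, so its direction was set by the floor. None of 8 past it in both libraries was called. Wt1 (chr2:105126529-105173616, plus strand) stood at 3.43 (2.94 to 3.97) in normal and 5.77 (5.29 to 6.29) in fibrosis members, 1.68 times (1.42 to 2.01), under the limit. It was detected in 37 of 43 and 43 of 46 members, and lymphoid cells stood at 0.00168 and 0.0386. In the fibrosis library fibroblast cells also had Wt1, at 2.22. Gata6 stood at 2.77 and 4.43 and Tead1, a DNA-binding partner of YAP, at 2.37 and 2.20.

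Keratins depended on the cholangiocyte-marker cells. Krt19 stood at 10.4 (9.55 to 11.3) and 4.43 (4.0 to 4.88), 0.425 times, and 25.7% of its normal UMIs were in 1 of these cells. Without both cells the ratio was 0.605, under the limit no more. Krt8 went from a ratio of 0.666 to 1.55, and Krt18 from 0.488 to 0.915. The call on Krt18 was therefore lost too, and of the list's 3 lower genes only Cldn15, a claudin of tight junctions (4.74 and 1.63), did not rest on these cells. The list had 10 genes past the floor, all in both libraries, where 5.15% of all genes were lower.

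Of 11 contractile and mesenchymal genes past the floor 5 were higher and 1 was lower, but 4 of the 5 passed it through fibrosis members only. Of 6 past it in both libraries 1 was higher and 1 lower, with a median log2 ratio of 0.03. Vcam1 (chr3:116109949-116129688, minus strand), which lets leukocytes adhere, had UMIs in 11 of 43 normal and 45 of 46 fibrosis members. Its level was 0.270 (0.147 to 0.453) and 5.02 (4.57 to 5.51), 18.6 times higher (11 to 34.3), while lymphoid cells stood at 0.133 and 1.94. Pdgfra, the PDGF receptor of fibroblasts, was 14.2 times higher (0.173 and 2.46), in 3 and 25 cells. Acta2, the smooth muscle actin used as the myofibroblast marker, stood at 0.713 (0.502 to 0.983) and 2.21 (1.91 to 2.54), 3.10 times (2.17 to 4.53), and at 1.78 times without the 7 members with Mki67 or Top2a at 10 or more UMIs. In the same library stellate cells stood at 6.82 and fibroblast cells at 14.0 of Acta2. Vim, the intermediate filament of mesenchyme, stood at 26.0 and 22.4, and S100a6, a calcium-binding protein, was lower (52.4 and 24.5).

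Of 12 collagen genes past the floor 7 were called higher and 1 lower, with a median log2 ratio of 1.09, where 12.5% of all genes tested were higher. Of 8 past the floor in both libraries 5 were higher and 1 lower, with 5.37% of all genes higher on the same terms. Col1a2 (chr6:4504814-4541544, plus strand) stood at 5.88 (5.24 to 6.57) and 29.4 (28.3 to 30.6), 5.01 times higher (4.45 to 5.66). Its cells ranged from 0 to 31.8 with a median of 3.01 and from 0 to 114 with a median of 18.5. Col1a1, its partner in type I collagen, was just past the limit, at 5.84 (5.20 to 6.53) and 11.8 (11.1 to 12.5), 2.02 times (1.77 to 2.30), and at 1.83 times without the 2 cholangiocyte-marker cells. The 10 fibrosis members without Muc16 held 59.9% of the Col1a1, 51.3% of the Col1a2 and 72.3% of the Col3a1 UMIs. The 5 of them with the most Col1a1 had 67 to 166 UMIs of it, against at most 61 in any fibrosis member with Muc16, and 1 to 11 of Gpm6a. Without the members of both libraries that lack Muc16, Col1a1 was 1.17 times, Col6a1 1.71 times and Col6a2 1.69 times, which ends these calls, Col3a1 turned to 0.586 times, and Col1a2 was 3.79 times. Col3a1 stood at 15 and 21.7, with 38.5% of its fibrosis UMIs in 1 cell. Free collagen RNA was also higher in the fibrosis library, since lymphoid cells stood at 0.0303 and 2.02 for Col1a1 and at 0.0235 and 3.30 for Col1a2. The members remained under the fibrosis library's stellate and fibroblast cells, at 96.6 and 153 for Col1a2. The basement membrane chains Col4a1 (0.405 and 2.57) and Col4a2 (0.231 and 1.18) were higher, with fibrosis lymphoid levels of 2.04 and 1.32. Col14a1, a fibril-associated collagen, was lower (8.36 and 1.85).

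Of 14 matrix remodelling enzymes and inhibitors past the floor 8 were higher and 2 lower, with a median log2 ratio of 1.09. Of 10 past it in both libraries 6 were higher and 2 lower. Serpinh1, the collagen chaperone HSP47, stood at 5.99 (5.34 to 6.70) and 15.1 (14.3 to 16.0), 2.53 times, with every fibrosis cell at 3.78 or more. Without the members that lack Muc16, Plod2 (1.54 times) and Timp3 (1.49 times) were no longer past the limit. Loxl1 (1.35 and 3.82) and Loxl2 (0.906 and 2.10), which crosslink collagen and elastin, Plod2 (1.62 and 3.36), which hydroxylates collagen lysines, and the membrane protease Mmp14 (1.5 and 4.07) were higher. The protease inhibitors parted: Timp1 (1.33 and 4.22) and Timp3 (4.82 and 10.5) were higher, and Timp2 was lower, at 22.6 (21.3 to 24.0) and 8.93 (8.32 to 9.57), with the lowest normal cell at 6.21 and the lowest fibrosis cell at 0.972.

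Of 19 matrix glycoproteins and proteoglycans past the floor 4 were higher and 5 lower, with a median log2 ratio of -0.06, and of 13 past it in both libraries 2 were higher and 1 lower. Fn1, fibronectin, was 8.42 times higher (2.24 and 18.8), but 34.5% of its fibrosis UMIs were in 1 cell. The call on Fbn1, fibrillin-1, ended without the members that lack Muc16 (a ratio of 2.39 against 0.939). The lower genes were Fmod, Efemp1, Ogn, Fbln5 and Mfap5. Fmod, the proteoglycan fibromodulin, stood at 7.15 (6.44 to 7.91) and 0.585 (0.438 to 0.765), 0.0818 times (0.0602 to 0.109), and was detected in 39 of 43 and 20 of 46 members. Efemp1, also called fibulin-3, stood at 26.0 and 4.90, and Ogn, osteoglycin, at 7.59 and 0.806. Fbln5 (2.33 and 0.265) and Mfap5 (1.33 and 0.0993), both tied to elastic fibres, were lower, while Eln itself stood at 4.10 and 5.65.

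Growth factor genes differed in both directions. Igfbp5 (chr1:72857932-72874884, minus strand), an IGF-binding protein, stood at 88.5 (86.0 to 91.1) and 26.6 (25.6 to 27.7), 0.301 times. Its normal cells ranged from 5.08 to 242 and its fibrosis cells from 0 to 203. Of 17 WNT, IGF and growth factor genes past the floor 6 were lower, among them Rspo1 (6.11 and 2.35), which amplifies WNT signals, Kitl (2.58 and 0.839) and Fgf1 (1.68 and 0.166). Igfbp3, Sfrp2 and Wnt4 (1.27 and 3.09) were higher, Sfrp2 only at 1.41 times without the members that lack Muc16. In the TGF-β and BMP list 6 of 14 were lower, including the latent TGF-β binding proteins Ltbp1 (2.27 and 0.784) and Ltbp4 (6.92 and 2.09), the receptor Tgfbr2 (2.79 and 1.31), the ligands Tgfb3 and Bmp4 (2.24 and 0.684) and the activin antagonist Fst. The secreted glycoprotein gene Fstl1 was higher (1.79 and 5.77). The median log2 ratios of these lists were -0.41 and -0.54, where 10.7% of all genes tested were lower. Past the floor in both libraries 3 of 11 and 2 of 10 genes were lower.

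Retinoid genes gave 3 higher and 2 lower calls among 7 past the floor, where 12.5% of all genes tested were higher and 10.7% lower. The floor set the direction of 2 higher calls, past it through fibrosis members only. It also set that of 1 lower call, past it through normal members only. Past it in both libraries were 3 genes, 1 higher and 1 lower. Aldh1a1 (2.49 and 5.46) and Rdh10 (0.231 and 1.19), which oxidize retinoids, were higher. The third higher gene, Rarres1, had 98.1% of its fibrosis UMIs in 1 cell. Rarres2 was lower as given above, and Rbp4, which hepatocytes secrete, stood at 3.16 and 0.210 beside 7.99 and 0.894 in lymphoid cells. Of 12 stellate markers only Ecm1 reached the floor (2.81 and 2.33), but the rule capped Lrat and Reln, so low stellate markers were partly fixed by the selection.

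The 15 genes named for the smallest ratios were Ckmt1, Slc4a11, Fxyd3, Pamr1, Chrdl1, Col4a4, Fibin, Mfap5, Prph, Fmod, Clic3, Fgl2, Fgf1, Ogn and Myl7. Ckmt1, a mitochondrial creatine kinase, had UMIs in 18 normal members and in 1 fibrosis member. Slc4a11, a membrane transporter, stood at 2.24 (1.85 to 2.68) and 0.110 (0.0529 to 0.203). Fxyd3, a regulator of the sodium pump, stood at 8.81 and 0.497, in 39 and 16 cells. Chrdl1, a BMP antagonist, stood at 1.62 and 0.110. Myl7, a myosin light chain best known from cardiac atria, stood at 10.4 (9.55 to 11.3) and 1.14 (0.928 to 1.38), and members held 77.7% and 81.1% of its UMIs. Fgl2 (4.91 and 0.475) was the one of them that lymphoid cells also had above 1, at 1.41 and 1.47. Some of the 15 were also lower in fibrosis fibroblast cells. Their expected shares after thinning went from 48.3% to 4.41% for Ogn and from 18.0% to 0.0996% for Mfap5. Fmod (13.4% and 14.8%) and Pamr1 (7.60% and 12.1%) were not lower there.

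**Figure D5:**
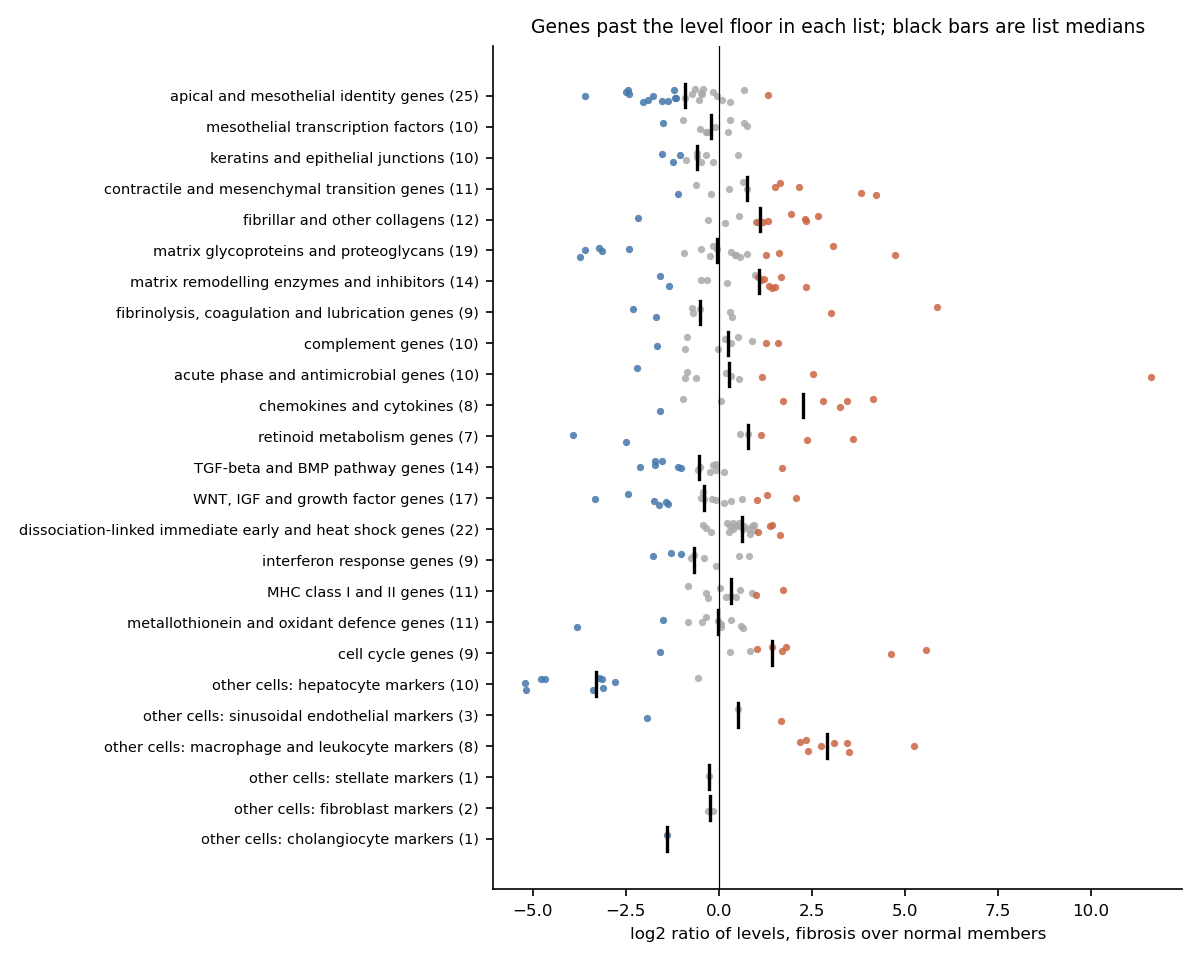
Log2 ratio of levels, fibrosis over normal members, of each gene past the floor in 25 lists (number of genes in parentheses), with higher calls in orange, lower calls in blue, others grey and the median as a black bar. Medians are drawn for genes past the floor in either library, so those of chemokines (2.26), hepatocyte markers (-3.30) and macrophage markers (2.91) rest mostly on genes past it in 1 library. Collagens (1.09) and remodelling (1.09) lie to the right and the identity list (-0.92) to the left.

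RNA of other cells differed between the libraries, in the direction of part of these calls. Of 10 hepatocyte markers past the floor 9 were lower, 8 of them past it through normal members only. Past it in both libraries were 2, with 1 lower. Alb stood at 28.1 in normal and 3.19 in fibrosis members and at 87.1 and 12.3 in lymphoid cells, so in both libraries the level was lower in members. Subtracting the mean lymphoid UMIs per cell left an Alb level of 0 in normal and 1.53 in fibrosis members. Mup3, of a family of near-identical genes, and Fabp1 were the genes for which every fibrosis cell lay under every normal cell. Of 12 macrophage and leukocyte markers 8 passed the floor, all through fibrosis members only, so their direction was set by the floor, and all 8 were called higher. The summed level of the 12 was 3.45 in normal members (0 to 21.1 per cell) and 22.6 in fibrosis members (4.16 to 173 per cell), against 26.0 and 52.5 in lymphoid cells. C1qa, C1qb and C1qc together stood at 0.867 and 7.43 in members and at 2.46 and 11.6 in lymphoid cells. Clec4f, a Kupffer cell marker, stood at 0.578 and 3.06 beside 1.24 and 3.36. Lyz2 stood at 0.116 and 4.37 beside 0.578 and 3.34, but the lymphoid rule capped Lyz2, and 41.9% of the fibrosis UMIs were in 1 cell. Of 11 lymphocyte markers none reached the floor, and Cd74, an MHC class II chaperone, stood at 3.28 and 10.8 in members and 32.4 and 31.2 in lymphoid cells. The part of this RNA in the calls was not tested.

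Without the 4 C1q-rich cells, 246 of the 283 higher and 235 of the 244 lower calls were kept, and Saa3, Prg4, Chil1 and Vcam1 stood at ratios of 3426 (at least), 60.8, 47.3 (at least) and 16.1. Subtracting each library's mean lymphoid UMIs from every member kept 231 higher and 195 lower calls, put 30 called genes on the other side of 1 and gave ratios of 0.149 for Igfbp6, 3.99 for Col1a2 and 1.59 for Col1a1.

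Cell cycle genes rested on few cells. Of 9 past the floor 6 were higher and 1, Ccnd2, lower, but 5 of the 6 passed it through fibrosis members only, and of 3 past it in both libraries 1 was higher and 1 lower. Mki67 had UMIs in 1 normal and 16 fibrosis members and stood at 0.0385 and 1.83, beside 1.86 and 1.15 in lymphoid cells, and Top2a stood at 0.0963 and 2.38. Without the 7 members with the most of their UMIs the ratios were 3.44 and 2.75 in place of 47.5 and 24.7. Of these 7 cells 3 held no Muc16 UMI, with 1, 1 and 9 UMIs of Gpm6a.

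Of 22 genes that tissue dissociation is known to induce 4 were called higher (Dusp1, Fosb, Nr4a1 and Zfp36), none lower and 18 neither, with a median log2 ratio of 0.61, where 12.5% of all genes tested were called higher. Past the floor in both libraries were 21, with 4 higher and none lower, where 5.37% of all genes were higher. Dusp1 stood at 3.64 and 11.5 in members and at 4.38 and 12.1 in lymphoid cells. Among MHC class I genes H2-K1 stood at 24.2 and 24.7 and B2m, the light chain, at 20.7 and 30.7, 1.48 times, under the limit. H2-T23, a non-classical class I gene, stood at 1.87 and 1.05, also within the limit. Of the 11 MHC genes past the floor, with a median log2 ratio of 0.31, 2 class II genes were higher, Cd74 and H2-Aa. Past it in both libraries were 10, with 2 higher, where 5.37% of all genes were higher. Of 11 metallothionein and oxidant defence genes past the floor none was higher. Cat and Gsta4, a glutathione transferase (3.39 and 0.243), were lower, where 10.7% of all genes tested were. Both passed the floor through normal members only, so their direction was set by the floor. None of 8 past it in both libraries was lower. After thinning, Cat was expected in 26.3% of normal and 9.10% of fibrosis members, under lymphoid cells at 52.9% and 19.6%. In Gsta4 1 normal cell held 34.7% of the UMIs.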

How the data were processed

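scRNA-seq of liver NPCs was analysed in 1 normal and 1 fibrosis library. Per the submitters' processing notes and the methods, the authors aligned reads to mm10 with Cell Ranger 3.0.1 and deposited UMI counts per gene and cell, without normalization; the methods state that doublets were removed with Scrublet, and no doublet caller was run here. Totals were 44062632 UMIs in 8130 normal and 53288463 in 6437 fibrosis cells. Cells with under 10% mitochondrial UMIs and over 200 genes were kept.

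Members and lists were chosen with earlier results of these data known. Member UMIs were summed per library and scaled to 10000. Poisson intervals, conditional intervals of ratios and Clopper-Pearson intervals of shares are exact, at 95%, and cover counting error only. A count of 0 was replaced by 3 counts over the library's members for ratios. Genes needed a level of 1 in either library, and a call needed a ratio of 2 either way with an interval leaving out 1. Mitochondrial, ribosomal-protein and haemoglobin genes and Xist were left out.

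Named genes are the markers, the 15 largest and 15 smallest ratios (at least 3 times the lymphoid level in the higher library, a log2 ratio at least 1 from that in lymphoid cells, no cell with over 25% of the UMIs in that library), the 15 genes highest over other cells, in each list the 2 with the highest mean level and the 2 with the largest log2 ratio either way, and Acta2, Col1a1, Col3a1, Wt1 and Krt19. Other list members, Gm42418 and Fth1 were named after their values were seen. Lymphoid cells had at least 3 UMIs of Cd79a, Cd79b and Ms4a1 or 2 of Cd3d, Cd3e and Cd3g, and at most 3 of Lyz2. Stellate cells had at least 5 UMIs of Lrat and Reln, fibroblast cells at least 5 of Dpt, Clec3b, Mfap4 and Entpd2, and endothelial cells at least 10 of Ptprb, Kdr and Stab2, all with caps on the other groups' genes. Expected shares after thinning to 1000 UMIs left out 1 shallower fibrosis member, 2 normal and 4 fibrosis lymphoid cells. Positions are from GENCODE (GRCm38), which held all 120 genes looked up, and promoters from RefSeq, which matched 83 of them. Python 3.11.15, numpy, scipy and pandas were used, and the call rule was tested on simulated data.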

Additional observations from a re-analysis of the deposited data

Results flagged for a closer look

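For 7 named genes the members and the stellate comparison cells stood on opposite sides, each at least 2 times with a counting interval leaving out 1. The difference between the cell groups was not tested, and each library is 1 mouse. Ccl2 was 11 times higher in fibrosis members and 0.118 times (0.102 to 0.138) in fibrosis stellate cells, and Cxcl10 17.8 and 0.358 times. 1700025G04Rik gave 6.05 and 0.377 times, and the receptor gene Flt4 3.17 and 0.288 times. The level of Flt4 in members (0.366 in normal and 1.16 in fibrosis) lay under that of lymphoid cells (0.506 and 1.80) in both libraries. The level of Cxcl10 was near that of lymphoid cells in fibrosis. Members were deeper, so these levels do not place either gene above or under the background. S100a6 was 0.467 times in members and 5.14 times (3.88 to 6.95) in stellate cells, Timp2 0.395 and 2.04 times, and Spp1 0.381 and 10.8 times. The Spp1 value of members rested on the 2 normal cells with cholangiocyte genes.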

How the results depend on the processing

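With 1 library per condition no replicate could be left out. No paired analysis was possible because each group has 1 sample and the result comes from no test. Of 18 alternatives, 4 were chosen after the data were seen (without the Epcam, C1q-rich or cycling members, or those lacking Muc16). Of 2159 values of 120 named genes, 1686 stayed within the counting interval of the reported ratio, 457 left it and 16, of called genes, crossed 1, counting values set by the 3-count floor.

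The normal share was 1.03% at a mitochondrial limit of 5%, where the fibrosis share was 0.587%, so that the order of the shares turned, and 0.375% both with stricter stellate and endothelial caps and with no Ptprc and at most 2 C1q UMIs. The last setting left 3 fibrosis members (0.0489%), and stricter caps gave 0.506%. Higher calls numbered 283 as reported, 455 at the 5% limit (10 fibrosis members), 432 without Ptprc and C1q, 929 as UMIs per cell, 541, 135 and 1199 at a floor of 0.5, of 2 and with none, and 461 after lymphoid subtraction. Of the calls reported, 188 higher and 203 lower were kept at the 5% limit. With no Ptprc and at most 2 C1q UMIs only 86 higher and 57 lower were kept, and 83 called genes stood on the other side of 1, values set by the 3-count floor included. Lower calls numbered 244 as reported, and 110 without Ptprc and C1q, 112 as UMIs per cell, and 421, 126 and 825 at these floors.

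Lymphoid subtraction set normal Alb and Mup3 to 0 and normal Cat to 0.206, so their ratios turned to at least 18.4, at least 1.44 and 3.33, and the hepatocyte median to 2.14 over 2 genes. With 3 fibrosis members left, Ckmt1, Fibin, Fst, Mfap5 and Prph had 0 UMIs in them, so their ratios of at most 2.13, 1.46, 1.55, 1.02 and 1.19 are limits of depth and give no direction. There Col1a1 (0.974) and Iigp1 (1.31) crossed 1, and the cholangiocyte median log2 ratio turned to 0.12. Rarres1 fell to 0.874 at the 5% limit, 0.282 with stricter caps and 0.233 without the deepest 10% of members (the cause was not tested). Spp1 turned to 1.31 at the 5% limit and 2.55 without the Epcam cells, which also turned the cholangiocyte median to 1.35. Without the members lacking Muc16 they were 3.15 and 1.65, and 224 of the higher and 210 of the lower calls reported were kept. Dividing by the median ratio shifted all log2 ratios by 0.10 and gave 243 higher and 292 lower.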

Other observations

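Fth1, the heavy chain of the iron store ferritin, was also called higher, at 43.1 (41.3 to 44.9) in normal and 118 (116 to 120) in fibrosis members. Normal cells ranged from 12.6 to 172 (median 35.2) and fibrosis cells from 22.5 to 245 (median 101), so the cells overlapped. Gm42418, a transcript listed at 692 in normal and 336 in fibrosis members, took 6.92% and 3.36% of the members' UMIs, and normal lymphoid, stellate and fibroblast cells stood at 485, 467 and 564.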
